A study of Camellia sinensis with 8 samples.

Results

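The probes described here are those of 3 miRNA families, miR529, miR1863 and miR2936, on a miRNA chip hybridized with leaf RNA of tea plant (Camellia sinensis). They were chosen by name, and the families were picked because earlier results of these arrays showed them lowered by cold in both cultivars, so the ratio of cold over control describes them and tests nothing. The chip carried 18 such probes among 3511 miRNA probes, of which 11 belong to miR529, 6 to miR1863 and 1 to miR2936. A probe entered the fits when 1 or more of the 8 arrays gave it a detected signal, that is above 500, above 3 standard deviations of the background and with a coefficient of variation (CV) under 0.5 over its 4 spots. This held for 12 of the 18 probes (7 of miR529, 4 of miR1863 and 1 of miR2936) and for 295 of the 3511.

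The study compared young leaves of the cold-sensitive cultivar ‘Baiye 1’ (BY) and the cold-tolerant cultivar ‘Yingshuang’ (YS). In each cultivar 1 Cy3 array was hybridized for plants at 28 °C (control) and 1 for each of 4, 12 and 24 h at 4 °C. The labels name cultivar, temperature and hours of cold as the differences between the 8 arrays, and no transgene or other agent. Each condition is 1 array, so a single cold array and its control allow no test. Cold against control was also not tested over both cultivars, since the families were picked on that contrast. The methods kept control plants at 28 °C for the same set of times as the cold plants, and which of these times the control array of a cultivar holds, and how many plants, is not given in the sources used here. The chip measures miRNAs only, so markers of leaf cells could not be checked.

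Plant miRNAs guide an Argonaute protein to messenger RNAs that pair with them, and these are cut or kept from translation. miR529 is known from mosses and grasses, shares most of its sequence with miR156, and like miR156 targets genes of the SQUAMOSA promoter-binding-like (SPL) transcription factors, which control phase change, leaf initiation and flowering. miR1863 was described in rice, where it belongs to the class of long miRNAs that is made by another Dicer-like enzyme than the canonical miRNAs. miR2936 was described in Arabidopsis, and no role of it is given here.

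The sequences of the probes' targets, as listed on the chip, are shown first because they decide which probes can be read as separate measurements. Written 5′ to 3′ with the seed, bases 2 to 8, in capitals, the 7 tested miR529 probes and the 2 probes of the opposite arm were:
ppt-miR529d: aGAAGAGAgagagcacagccc
ppt-miR529a: cGAAGAGAgagagcacagccc
ppt-miR529e: aGAAGAGAgagaguacagccc
ppt-miR529g: cGAAGAGAgagagcacagucc
osa-miR529b: aGAAGAGAgagaguacagcuu
aqc-miR529: aGAAGAGAgagagcacaaccc
bdi-miR529: aGAAGAGAgagaguacagccu
zma-miR529-3p: gCUGUACCcucucucuucuuc
osa-miR529a: cUGUACCCucucucuucuuc

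The prefixes name the species of the miRBase entry: ppt is the moss Physcomitrella patens, osa rice, aqc Aquilegia coerulea, bdi Brachypodium distachyon and zma maize. The 7 tested probes and the undetected far-miR529 share the seed GAAGAGA, which only 2 other probes on the chip have, mdm-miR169e and mtr-miR5227. Set against ppt-miR529d, with positions counted from 1 at the 5′ end, ppt-miR529a differs by A1C, ppt-miR529e by C14U, aqc-miR529 by G18A, bdi-miR529 by C14U and C21U, ppt-miR529g by A1C and C19U, far-miR529 by C20U and C21U, and osa-miR529b by C14U, C20U and C21U. Probes this alike can bind the same RNA and are not independent of each other. The zma-miR529-3p and osa-miR529a probes carry a pyrimidine-rich sequence of another seed, and bcy-miR529 has a seed of its own, AAGAAGA.

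Among the miR1863 probes, 4 begin with the same 18 bases, AGCUCUGAUACCAUGUUA, and share the seed GCUCUGA, whereas osa-miR1863b.2 and osa-miR1863c have other seeds. The prefixes cme and pab stand for melon and Norway spruce. The probe of miR2936 is the only one with its seed. These sequences are shown with the seed in capitals:
osa-miR1863a: aGCUCUGAuaccauguuagauuag
osa-miR1863b: aGCUCUGAuaccauguuaacuguu
cme-miR1863: aGCUCUGAuaccauguuagauuug
pab-miR1863: aGCUCUGAuaccauguuagauu
osa-miR1863b.2: aGAGACUUggcugaugcauuacu
ath-miR2936: cUUGAGAGagagaacacagacg

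Probes of other families come close to these sequences, and they are shown because their signals are set beside those of the members further on. Capitals mark the run of bases shared with a member, ppt-miR529d for bdi-miR156a, osa-miR1863a for the next 3 and ath-miR2936 for csi-miR535:
bdi-miR156a: ugacAGAAGAGAGAGAGCACA
gma-miR1511: aaccagGCUCUGAUACCAUG
mdm-miR1511: accuAGCUCUGAUACCAUGaa
vvi-miR845a: uAGCUCUGAUACCAauugaua
csi-miR535: ugacaaUGAGAGAGAGcacac

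In an ungapped comparison with at least 15 bases set against each other, ppt-miR529d had 0 mismatches to bdi-miR156a over the 17 bases shown, and ath-miR2936 was closest to csi-miR535, with 3 mismatches in 17 bases. The 4 miR1863 probes with the shared start were closest to gma-miR1511, with 1 mismatch in 15 bases. Against the 283 probes designed from tea plant RNA, the tested miR529 probes had 1 or 2 mismatches to a miR156 sequence, ath-miR2936 had 5 and the miR1863 probes had 6 or 7. The 8 miR529 probes of the common seed consist of purines to between 71.4% and 76.2% and ath-miR2936 to 72.7%, against a median of 52.4% over the chip.

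In both cultivars the miR529 signals were low at 12 and 24 h of cold and stood near the control at 4 h in BY. The ppt-miR529d probe read 648.7 in the BY control and 643.5, 250.7 and 290.8 at 4, 12 and 24 h. In YS it read 559 in the control, then 425.2, 200.3 and 243.9. The 12 and 24 h arrays of both cultivars thus lay under both controls and under both 4 h arrays. The ppt-miR529a probe gave nearly the same values, with 672.8, 633, 244 and 299.1 in BY (control, 4, 12 and 24 h) and 563.3, 421.8, 195.8 and 228.7 in YS.

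The other moss probes and the rice probe followed the same course in BY. The ppt-miR529e probe read 1211, 1186, 432.6 and 499.2 in BY from the control to 24 h, and 991, 840.9, 572.6 and 626.4 in YS. The ppt-miR529g probe read 958.8, 1006.4, 395.9 and 466.9 in BY, and 839, 680.5, 414.3 and 529.9 in YS. For osa-miR529b, which had the lowest ratio of the family, the BY values were 1376, 1628.7, 356.3 and 534.2 and the YS values 1022.4, 700.3, 343.4 and 630.5. In these 3 probes the lowest array of each cultivar was that of 12 h.

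The aqc-miR529 and bdi-miR529 probes, detected on all 8 arrays, varied less. The aqc-miR529 probe read 1376.4, 1601.6, 757 and 1073.5 in BY and 1474.5, 1212.1, 773.6 and 1063.2 in YS. The bdi-miR529 probe read 1418.5, 1328.3, 809 and 1180.9 in BY and 1731, 1175.9, 1051.2 and 975.3 in YS. At 24 h their BY log2 ratios to the control were -0.36 and -0.26, outside the range of the other tested miR529 probes (-1.37 to -1.04). In YS at 24 h the other 5 had ratios of -1.30 to -0.66, with bdi-miR529 (-0.83) inside this range and aqc-miR529 (-0.47) outside it, nearest to 0 of the 7.

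With this normalization the miR1863 probes were below the control at 4 and 12 h in BY and reached their lowest BY value at 24 h. In YS they were already below the control at 4 h (median log2 ratio -0.97) and lower still at 12 and 24 h. The osa-miR1863b probe read 889.9 in the BY control and 586.1, 545.2 and 225.7 at 4, 12 and 24 h. In YS it read 1001.6 in the control, then 464.9, 335 and 325. Every cold array of either cultivar lay below both controls. The osa-miR1863a probe read 804.7, 545.7, 464.5 and 213.2 in BY and 860.3, 413.8, 277.4 and 292.5 in YS. The cme-miR1863 probe read 858.9, 564.5, 506.3 and 209.7 in BY and 869.5, 469.8, 292 and 336.8 in YS. For pab-miR1863, the shortest of the 4, the values were 965.4, 664.8, 598.8 and 282.8 in BY and 818.2, 608.6, 371.2 and 412.7 in YS.

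The ath-miR2936 probe read 896.8 in the BY control and 1061.9, 394.3 and 638.8 at 4, 12 and 24 h. In YS it read 819.2 in the control, then 370.6, 186.3 and 268.2. The 3 cold arrays of YS were the 3 lowest of the 8, and BY at 4 h was the highest. It was detected on 4 arrays, the BY arrays of the control, 4 and 24 h and the YS control.

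**Figure D1:**
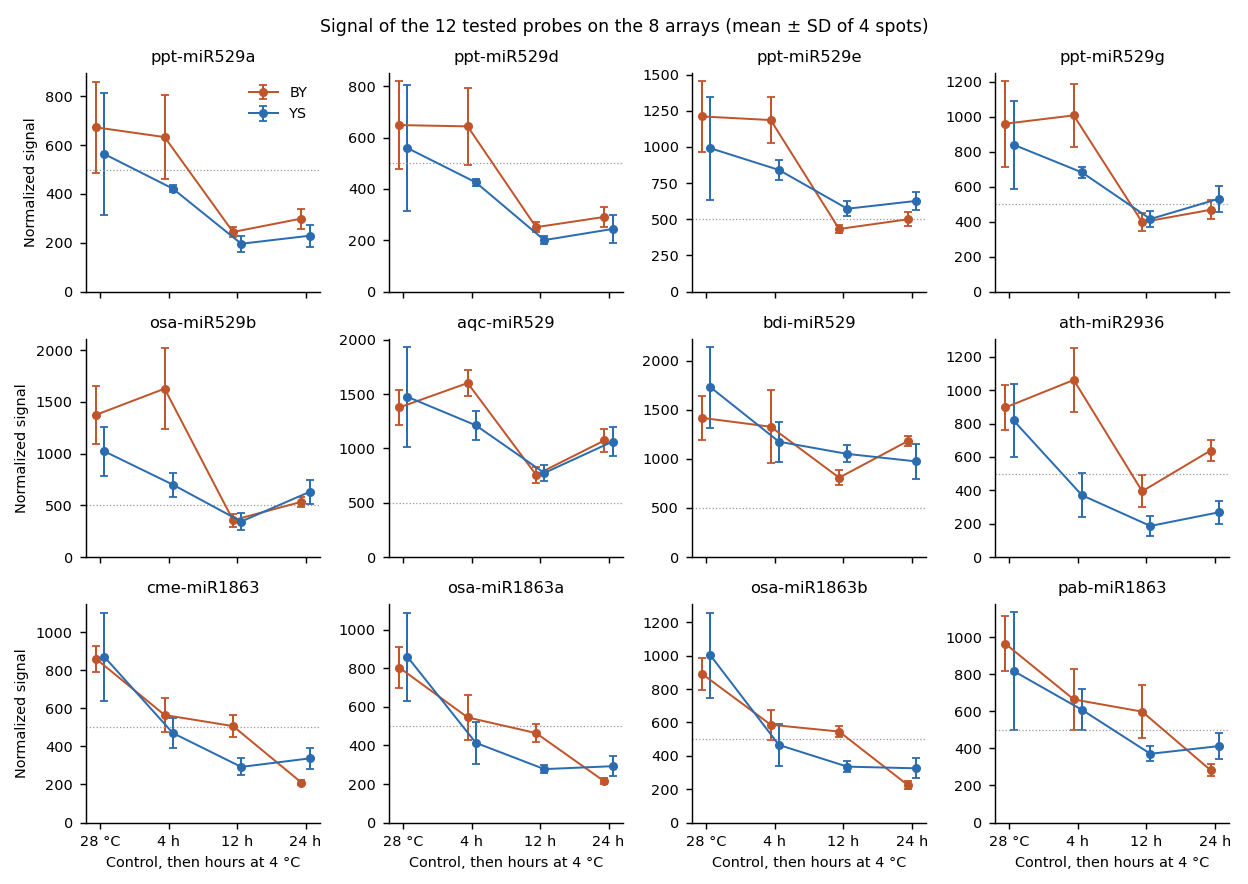
Normalized signal (linear scale from 0) of the 12 tested probes in BY and YS leaves, for the control at 28 °C and for 4, 12 and 24 h at 4 °C. Points are the mean and bars the SD of the 4 spots on 1 array, the dotted line is the detection level of 500, and each panel has its own axis. The miR529 probes of the top row are at their lowest at 12 h in both cultivars, the miR1863 probes of the bottom row at 24 h in BY.

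The 6 remaining probes were detected on no array. Of these, far-miR529 ranged between 64.8 (YS at 12 h) and 273.9 (BY control), bcy-miR529 between 57 and 177.5, osa-miR529a between 28 and 83.3, and zma-miR529-3p between 230.5 and 340. The far-miR529 probe, which differs from osa-miR529b only by U14C, had its lowest value of each cultivar at 12 h. Of the opposite arm, osa-miR529a was also lowest at 12 h in both cultivars, at 40.4 in BY and under the floor of 32 in YS. The zma-miR529-3p probe read 292.4, 230.5 and 263.9 at 4, 12 and 24 h in BY, against 239.3 in the BY control, and 242.2, 335.6 and 340 in YS, against 281.7 in the YS control, so that 12 h was its lowest array in BY and not in YS. The osa-miR1863b.2 and osa-miR1863c probes lay under this floor on all 8 arrays.

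As log2 ratios of cold over control, the median of the 7 miR529 probes was -0.01, -1.37 and -1.16 in BY at 4, 12 and 24 h and -0.39, -1.02 and -0.70 in YS. For the 4 miR1863 probes it was -0.58, -0.73 and -1.95 in BY and -0.97, -1.58 and -1.46 in YS. The ath-miR2936 ratios were 0.24, -1.19 and -0.49 in BY and -1.14, -2.14 and -1.61 in YS. Over all 295 tested probes the medians lay between -0.17 and -0.02. At 12 and 24 h all 12 tested probes had ratios below 0 in BY and in YS with this normalization, as the choice of the families would have it. At 4 h in BY 8 of the 12 had. The description of the families as lowered in both cultivars thus does not cover BY at 4 h. Under other scalings it has further exceptions in both cultivars. In BY these are miR1863 at 12 h, ath-miR2936 at 24 h, and aqc-miR529 and bdi-miR529 at 12 and 24 h. In YS at 4 h the miR529 median was below 0 in only 5 of 9 other settings. The pab-miR1863 ratio in YS at 4 h was 0.14 in the authors' table and 0.46 without normalization. It was 0.12 under quantile normalization and 0.12 under a loess curve on all probes. The cme-miR1863 ratio in YS at 4 h was 0 without normalization.

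By a rule of size, a ratio under -1 with detection on at least 1 of the 2 arrays, 0, 6 and 9 of the 12 probes passed in BY at 4, 12 and 24 h, where 0.678%, 6.1% and 15.6% of all tested probes did. In YS 3, 9 and 6 passed, where 7.8%, 10.5% and 9.49% of all tested probes did. At 1 or more times 10 passed in BY and 9 in YS, against 16.6% and 14.6% of all tested probes. Since the families were picked on this contrast, nothing is read from these counts. In BY at 12 h the 6 probes that passed were 5 of miR529 and ath-miR2936, and none of miR1863. In BY at 24 h they were 5 of miR529 and all 4 of miR1863. The spots of a probe gave these ratios standard errors of 0.07 to 0.28 in BY and 0.18 to 0.35 in YS, which cover the spread within arrays and not that between plants. All YS ratios share the YS control array, on which the spots of the 12 probes varied most (median CV 0.283, against 0.0992 to 0.195 on the other 7 arrays).

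**Figure D2:**
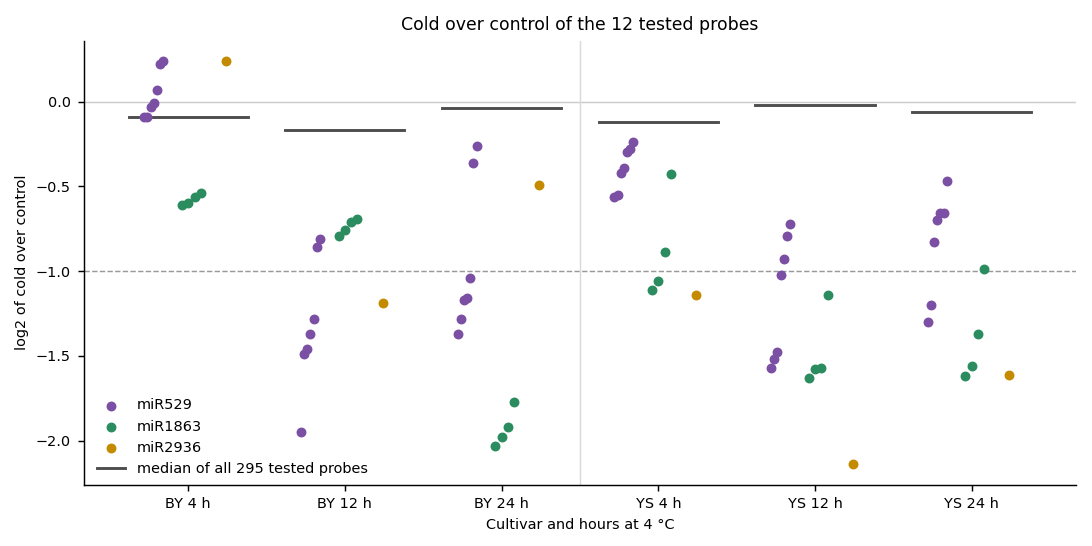
log2 ratio of cold over control for the 12 tested probes (points, coloured by family) at 4, 12 and 24 h in BY, left, and YS, right. The grey bars are the medians of all 295 tested probes, between -0.17 and -0.02, and the dashed line is the rule of size at -1. All 12 probes lie below 0 at 12 and 24 h with this normalization.

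Between the cold arrays the 3 families did not take the same steps. The 7 miR529 probes were lower at 12 h than at 4 h in both cultivars, by a median log2 difference of -1.36 in BY and -0.72 in YS. At 24 h 7 of these 7 probes, which are not independent of each other, stood higher than at 12 h in BY (median 0.29), and 6 of 7 did in YS (median 0.28). The ath-miR2936 probe likewise stood lower at 12 h than at 4 h (-1.43 in BY, -0.99 in YS) and higher at 24 h than at 12 h (0.70 in BY, 0.53 in YS). The miR1863 probes moved by a median of only -0.16 between 4 and 12 h in BY and then by -1.20 to 24 h, with 0 of 4 higher at 24 h. In YS their steps were -0.64 and 0.11. The steps in BY depend on the scaling. In the authors' table the miR1863 median ratios in BY were -0.35 at 4 h and -0.30 at 12 h. Without normalization the miR529 median in BY went from -0.25 at 12 h to -1.66 at 24 h. Relative to all tested probes it then went from -0.69 to -0.74. The ath-miR2936 ratio went from -0.07 to -0.99 without normalization. Relative to all tested probes the ath-miR2936 ratio then went from -0.51 to -0.07, a rise as with the loess normalization. Each step compares 2 single arrays, and its difference between cultivars or families was not tested.

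The 4 h values depend on how the arrays are scaled to each other. Across 9 other settings of normalization, background, floor and spot summary, the miR529 median at 4 h ran from -0.01 to 0.34 in BY and from -0.39 to 0.50 in YS. In the authors' own table ppt-miR529a, ppt-miR529d and ppt-miR529e stood above the control at 4 h in YS, with log2 ratios of 0.31, 0.34 and 0.26 where the loess-normalized signals gave -0.42, -0.39 and -0.24. At 12 and 24 h the miR529 medians stayed below 0 in all 9 settings in both cultivars, from -1.37 to -0.25 at 12 h and -1.66 to -0.51 at 24 h in BY, and from -1.76 to -0.67 and -0.91 to -0.40 in YS. The miR1863 median was below 0 in all 9 settings in every comparison except BY at 12 h, where it reached 0.38 without normalization. For ath-miR2936 the BY ratio at 24 h ran from -0.99 to 0.22 and so has no settled direction, whereas its YS ratios stayed below 0 at all 3 times. Taken against the median of all tested probes in the same setting, which removes a shift of a whole array, BY at 12 h gave -1.21 to -0.69 for miR529, -0.58 to -0.05 for miR1863 and -1.06 to -0.51 for ath-miR2936.

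**Figure D3:**
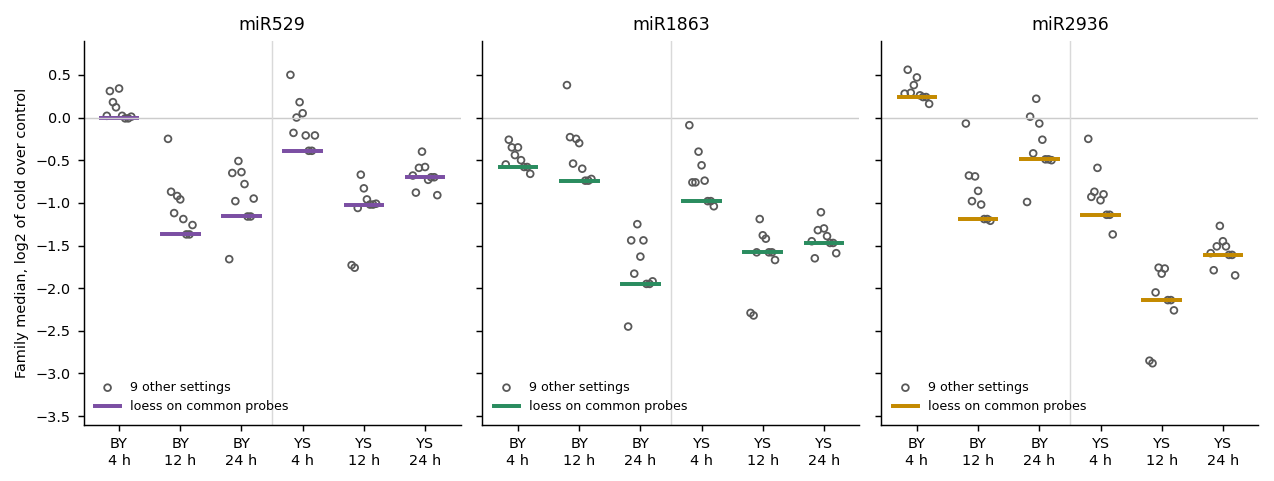
Median log2 ratio of cold over control of each family (for miR2936 its 1 probe) under the loess normalization used in the text (coloured bars) and under 9 other settings (open circles), BY left and YS right in each panel. The circles of miR529 lie on both sides of 0 at 4 h and below 0 at 12 and 24 h.

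Whether the cultivars differed in the level of these probes was not what the families were picked on, though the same arrays were used. It was tested with limma on the 4 BY arrays against the 4 YS arrays with the time point as a term, over all 295 tested probes with Benjamini-Hochberg adjustment, which leaves 3 residual degrees of freedom. With this test 0 of the 12 probes were called at an adjusted p of 0.05, where 24.4% of all tested probes were, in BY 36 of them upwards and 36 downwards, and 2 of the 12 had an unadjusted p under 0.05. The arrays of different stages stand in for repeats of a cultivar, and p-values measure only the spread between these arrays.

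The ath-miR2936 probe differed most. Its mean log2 signal was 9.45 ± 0.63 in BY and 8.46 ± 0.91 in YS (SD over the 4 stages). BY was higher at 4 of 4 stages, by 1.00 on the log2 scale (SE 0.27, 95% interval 0.30 to 1.69), a fold of 1.99, with a limma adjusted p of 0.055. On the control arrays the log2 signals were close, 9.81 in BY and 9.68 in YS. For BY and YS they were 10.05 and 8.53 at 4 h, 8.62 and 7.54 at 12 h, and 9.32 and 8.07 at 24 h. The difference thus lay mostly in the cold arrays. It is not separate from how far cold lowered the probe in each cultivar. Without the 2 control arrays the difference was 1.28 with an adjusted p of 0.015. Across all 15 alternatives it ran from 0.54 to 1.51, higher in BY in each, with adjusted p between 0.015 and 0.43.

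Of the miR529 probes, ppt-miR529a was higher in BY at 4 of 4 stages by 0.39 (SE 0.14, limma adjusted p 0.11) and ppt-miR529d by 0.35 (SE 0.14, limma adjusted p 0.15). The other 5 miR529 probes differed by -0.05 to 0.37 with adjusted p of 0.43 to 0.97. The 4 miR1863 probes differed by 0.08 to 0.15 with adjusted p of 0.75 to 0.86. The 95% intervals of the 11 miR529 and miR1863 probes lay between -0.61 and 1.08 on the log2 scale. The upper end is that of osa-miR529b. With this normalization each of the other 10 intervals leaves room for less than a 2-fold difference either way. The estimates moved with the processing. Across the 15 alternatives they ran from -0.10 to 0.90 for ppt-miR529a, -0.14 to 0.86 for ppt-miR529d and -0.32 to 0.66 for osa-miR1863a. The limit of 2-fold is therefore not given for the alternatives.

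**Figure D4:**
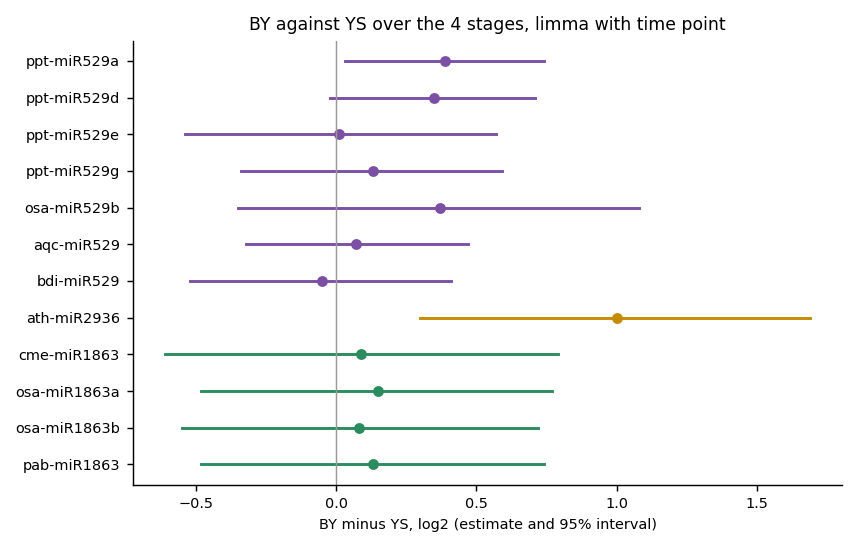
Difference of BY minus YS in log2 signal over the 4 stages for the 12 tested probes, from limma with a time point term (points, estimates; lines, 95% intervals; purple miR529, ochre miR2936, green miR1863). The ath-miR2936 estimate of 1.00 has an interval from 0.30 to 1.69, and all but 1 of the other intervals include 0.

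The families also differed in how alike their courses were, given here as Pearson correlations over the 8 arrays, which share their controls and their normalization. Within miR529 the 21 pairs of tested probes had r between 0.76 and 1 (median 0.92), and within miR1863 the 6 pairs had r between 0.97 and 1. Between families the median r was 0.81 for miR529 with miR2936, 0.72 for miR529 with miR1863 and 0.57 for miR1863 with miR2936. The miR529 probes and ath-miR2936 share a run of 9 bases, AGAGAGAGA, whereas they share no such run with miR1863.

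Outside the 3 families, the tested probes most like the mean miR529 course were zma-miR159e-3p (r = 0.88), vvi-miR156h (0.84) and bdi-miR156a (0.81). Those most like miR1863 were ath-miR159b (0.90), the tea plant probe PC-3p-538735_2 (0.88) and pta-miR159c (0.87). A high r does not mean a change of like size. The log2 ratios of ath-miR159b lay between -0.21 and -0.06, and those of PC-3p-538735_2 and pta-miR159c between -0.50 and -0.07. The miR1863 medians lay between -1.95 and -0.58. Those most like ath-miR2936 were csi-miR535 (0.98), csi-miR3946 (0.94) and gma-miR319c (0.92). miR159 targets MYB and miR319 TCP transcription factor genes. The likeness of csi-miR535 to ath-miR2936 coincided with likeness in sequence. As a group the miR535 probes did not share this course in BY. The 6 tested ones, csi-miR535 among them, had median log2 ratios of 0.27, 0.68 and 0.67 in BY and 0.04, -0.53 and -0.13 in YS. The csi-miR535 probe read 770.8, 902.6, 453.9 and 689.1 in BY from the control to 24 h and 617.7, 415.8, 224.8 and 353.5 in YS. Its log2 ratios were 0.23, -0.76 and -0.16 in BY and -0.57, -1.46 and -0.81 in YS, each nearer to 0 than the ath-miR2936 ratio of the same array.

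The bdi-miR156a probe, which holds 17 bases of miR529, read 2215.7, 2673.6, 1447.1 and 2014.8 in BY and 3262.9, 2384.4, 1760.8 and 2193.9 in YS. Its log2 ratios of 0.27, -0.61 and -0.14 in BY and -0.45, -0.89 and -0.57 in YS had their lowest value of each cultivar at 12 h, as 6 of the 7 miR529 probes did in YS and all 7 in BY. The gma-miR156f probe, which holds the same 17 bases, had ratios of 0.39, -0.39 and 0.19 in BY and -0.22, -0.75 and -0.74 in YS. The far-miR156b and ath-miR156j probes, with bdi-miR156a and gma-miR156f the closest to ppt-miR529e, osa-miR529b and bdi-miR529, stood above the control at 24 h in BY (0.11 and 0.18) and were lowest at 24 h in YS (-0.84 and -0.93). None of these 4 probes passed the rule of size. The gma-miR1511 probe, closest to miR1863, lay below the control in 5 of the 6 comparisons. It read 1369.1, 1106.5, 1996.2 and 1149.1 in BY and 2489, 1480.2, 1402.3 and 1287.7 in YS, with log2 ratios of -0.31, 0.54 and -0.25 in BY and -0.75, -0.83 and -0.95 in YS. At 12 h in BY, where it stood above the control, the 4 miR1863 probes lay between -0.79 and -0.69 with this normalization. Their median there was -0.30 in the authors' table and 0.38 without normalization. The gma-miR1511 ratios under other settings are not given here. The mdm-miR1511 probe, with 15 bases in common, had ratios of -0.62, 0.07 and -0.96 in BY and -0.82, -0.14 and -0.48 in YS. At 4 h in BY gma-miR1511 did not count as detected, its signal of 1106.5 having a spot SD of 660.5. The vvi-miR845a probe, of a family that in Arabidopsis matches the primer binding sites of retrotransposons, shares 13 bases with miR1863 and lay under the floor on all 8 arrays. What part binding of related RNAs to these probes has in the members' signals was not tested.

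**Figure D5:**
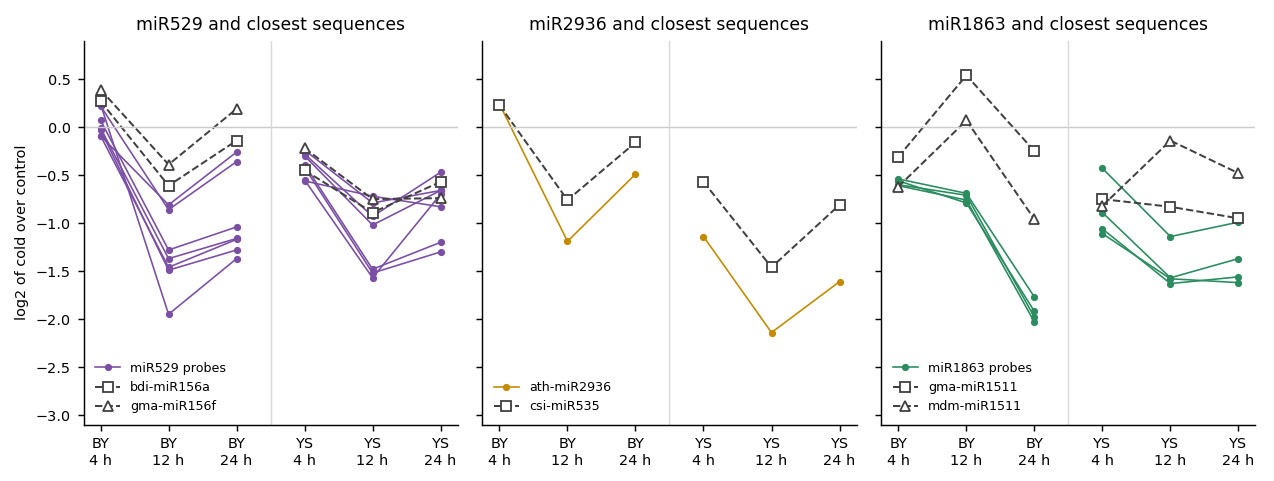
log2 ratio of cold over control of the members (solid, coloured) and of the probes closest to them in sequence (dashed, open symbols), BY left and YS right in each panel. The csi-miR535 course runs alongside that of ath-miR2936. With the loess normalization used in the text, gma-miR1511 stands at 0.54 at 12 h in BY and the miR1863 probes below -0.6.

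Lists of related probes did not share the course as a whole. Of the 79 probes of miR156, miR157 and miR535, which with miR529 make up the SPL-targeting miRNAs or are close to them in sequence, 30 were tested. Their median log2 ratios were 0.19, -0.14 and 0.05 in BY and -0.27, -0.35 and -0.29 in YS, and 1 of the 30, at 12 h in YS, passed the rule of size as lower. Between cultivars, limma called 14 of these 30 probes, 2 higher and 12 lower in BY, whereas no miR529 probe was called. The difference between the list and miR529 was not tested. Of the 6 Arabidopsis probes numbered miR2933 to miR2939 beside miR2936, 0 were tested, and of the 62 rice probes numbered miR1846 to miR1884 beside miR1863, 1 was (osa-miR1881), with ratios of -0.43 to 0.47. Among the probes of 24 bases, the length of 3 of the tested miR1863 probes, 18 of the 451 outside the families were tested. Their medians were -0.03, -0.13 and 0.09 in BY and -0.49, -0.78 and -0.49 in YS, against 295-probe medians no lower than -0.17. Of these 18 probes, 1, 0 and 4 passed the rule as lower in BY and 6, 5 and 5 in YS. As higher, 0, 5 and 6 passed in BY and 0 at each time in YS. The shares of all tested probes passing as lower were 0.678%, 6.1% and 15.6% in BY and 7.8%, 10.5% and 9.49% in YS.

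Other values of the same arrays, which moved with the members only in part, were the following. On the chip's spiked control probes, the median log2 ratio of those whose names end in M and a number to those ending in P was -1.41 to -1.10 on the BY arrays. For YS the same ratio was -1.88 (control), -1.85 (4 h), -3.40 (12 h) and -2.87 (24 h), and the 12 and 24 h arrays were the lowest of the 8 for ath-miR2936. The files do not state what these endings mean. Among the tested probes outside the families with 4 or more mismatches to every tea plant probe, 15.6% passed the rule as lower in each YS comparison, against 1.04% to 11.5% in BY, and all 4 miR1863 probes and ath-miR2936 are in this class. Among the 51 tested probes outside the families whose purine share was at least that of ppt-miR529a, 15.7%, 17.6% and 11.8% passed as lower in YS at 4, 12 and 24 h, with medians of -0.28, -0.52 and -0.40, whereas 0% passed in BY, with medians of 0.09, -0.14 and 0.13. The tested miR529 probes and ath-miR2936 also have at least that share. The 6 tested probes of the rRNA-derived group miR2910 to miR2916 had median ratios of 0.49, 1.27 and 0.90 in BY and between -0.24 and -0.20 in YS. Before normalization the mean log2 signal of the 130 probes detected on all arrays ran from 10.89 (BY at 24 h) to 12.41 (YS at 4 h). The part of each of these in the results was not tested.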

How the data were processed

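Leaf RNA of 8 samples was hybridized to LC Sciences chips with miRBase 19.0 and tea plant probes, 4 spots each. The authors deposited scanner output, the median brightness of each spot as a linear intensity with no background subtracted and no normalization, and a table of normalized intensities, for which their methods name background subtraction and locally-weighted regression. The table's scale is linear and its column medians were 1.72 to 2.66, and its reference array and software settings are not given in the sources used here. From the scanner values, the median of the empty spots of each array was subtracted (40.5 to 47.3), the 4 spots were averaged, and a loess curve adjusted every array to the 8-array mean (span 0.7, degree 1) on the 130 probes detected on all arrays. A probe with a mean signal outside the range of these 130 took the correction at the nearest end of the curve. The tested members other than aqc-miR529 and bdi-miR529 lay below this range. For ppt-miR529a in BY at 12 h the log2 ratio was -1.46 this way and -0.96 under 1 scaling factor per array. Signals under 32 were set to 32 and log2 was taken. Detection followed the methods (signal above 500, above 3 background SD, CV under 0.5), and 190 to 232 probes were detected per array. Precision is limited by 1 array per condition.

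BY was compared with YS by limma 3.58.1 in R 4.3.3 with a time point term and Benjamini-Hochberg adjustment at 0.05, after a test on simulated data. Ratios of cold over control carry no test. Sequences were compared without gaps at shifts of up to 6 bases in Python 3.11.15. Named were all probes of the 3 families, the 3 probes with the highest r to each family's mean, the closest sequences, and lists by probe name, with at most 4 probes of a list. The mdm-miR1511 and vvi-miR845a probes were added after their sequences were seen, and the class by mismatches and the purine share after values were seen. The members and lists were chosen with earlier results of these data known. Alternatives were other normalizations, the authors' table, normexp background, floors of 16 and 64, the median of the spots, signal thresholds of 200 and 1000, a 1.5-fold rule, the methods' paired test over the spots, fits without the time point term or with a trend, and leaving out each stage. The loess curve on all probes was fitted by least squares, since the robust fit could not be computed with most probes at the floor. Genome positions were not used here.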

Additional observations from a re-analysis of the deposited data

How the results depend on the processing

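The number of the 12 tested probes lower by more than 2-fold (0, 6 and 9 in BY and 3, 9 and 6 in YS at 4, 12 and 24 h) changed by more than 1.5 times under these alternatives. Without normalization BY had 0 at 12 h and YS had 0 at 4 h. Under 1 scaling factor per array, and likewise under a loess curve on all probes, BY had 1 at 12 h and 4 at 24 h, and YS had 0 at 4 h. Quantile normalization gave 0 in YS at 4 h. The authors' table gave BY 3 at 12 h and 4 at 24 h, and YS 0 at 4 h and 5 at 12 h. The normexp background gave BY 5 at 24 h and YS 0 at 4 h. A signal threshold of 1000, which left 7 of the probes tested, gave 2 and 2 in BY at 12 and 24 h and 1, 2 and 1 in YS at 4, 12 and 24 h. A 1.5-fold rule gave 2 and 12 in BY at 4 and 12 h and 11 in YS at 24 h. Adding the methods' paired test over the 4 spots at their threshold of 0.01 gave 3 in BY at 12 h and 0 at each time in YS, and in BY at 24 h 6. On its own that test passed 2, 7 and 6 of the 12 in BY and 0 at each time in YS, and 0, 1 and 3 in BY after Benjamini-Hochberg adjustment. Of all 295 tested probes it passed 42, 129 and 131 in BY and 19, 51 and 34 in YS, and after adjustment 3, 75 and 83 in BY and 0, 0 and 2 in YS. It compares spots of 2 arrays, not plants.

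The 72 ratios of single probes kept their sign in 591 of 648 values over 9 alternatives, and none past the rule of size turned its direction. The median of all tested probes moved most without normalization, to 0.44 (BY, 12 h), -0.92 (BY, 24 h) and 0.65 (YS, 4 h). Relative to this median, over the 9 alternatives, miR529 stood at -1.48 to -0.93 in YS at 12 h and -0.80 to -0.58 at 24 h, miR1863 at -1.91 to -1.50 in BY at 24 h and -2.03 to -1.39 in YS at 12 h, and ath-miR2936 at -2.60 to -1.74 in YS at 12 h. At 4 h in BY miR529 stood at 0.08 to 0.31 and ath-miR2936 at 0.26 to 0.50.

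For BY against YS with limma, 0 of the 12 probes were called in each alternative except without the control arrays, where 1, ath-miR2936, was (range 0 to 1 on leaving out each stage). The number called among all tested probes was 39 at a signal threshold of 1000 (222 tested) and 23 to 76 on leaving out each stage, 23 without the 4 h arrays, 35 without the 12 h arrays and 40 without the 24 h arrays, against 72 of 295. The cause of these changes was not tested, except that fewer probes or arrays enter where they are left out. The sign of the difference was kept in 15 of 15 alternatives for ath-miR2936, in 14 for osa-miR529b, ppt-miR529a and ppt-miR529d, and in 9 to 12 for the other 8 probes. No paired analysis of replicates was possible because each condition has 1 array. The 6 untested probes are limited by their signal over background, and their courses are values only.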
